A study of Mus musculus with 9 samples.

Results

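The signal transducers and activators of transcription (STATs) are latent transcription factors that cytokine receptors switch on through Janus kinases. The deposited arrays were read for 6 STAT genes, Stat2, Stat3, Stat4, Stat5a, Stat5b and Stat6, out of 12579 genes tested. The members were taken by their symbols in the platform annotation. Each had 1 probe set, which lay above the median of its array on 9 of 9 arrays.

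The RNA came from natural killer (NK) cells, lymphocytes that kill infected or transformed cells. Female C57BL/6N mice were either without Tyk2 (Tyk2-/-), carried a kinase-inactive Tyk2 (Tyk2K923E) or were wild type (WT). Splenocytes of 3 to 4 mice were pooled per genotype and experiment, enriched with DX5 magnetic beads and kept for 7 days in 5000 U/ml of recombinant human IL-2, so all 3 groups share the culture and its cytokine. With 1 Affymetrix array per genotype in each of 3 independent experiments, every genotype has 3 arrays, which limits the precision, and replicates are numbered by experiment. With 3 values a side, the smallest p that an exact permutation test without pairing allows is 0.1. Pairing by experiment leaves fewer permutations, so the smallest p of a paired one is larger.

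A receptor-bound Janus kinase phosphorylates a STAT on a tyrosine, and the STATs then pair, enter the nucleus and bind DNA. TYK2 is the Janus kinase of the receptors for type I interferon and for IL-12 and IL-23. STAT2 joins IRF9 in the factor that binds interferon-stimulated response elements (ISRE) after type I interferon. STAT4 carries the IL-12 signal and drives interferon-gamma production in NK cells, STAT5A and STAT5B carry the IL-2 and IL-15 signals on which NK cells depend, STAT3 serves IL-10, IL-21 and the IL-6 family, and STAT6 serves IL-4 and IL-13. Activation is a change of the protein that RNA levels do not measure.

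The genes lie on 3 chromosomes in the RefSeq annotation of GRCm38.p6. Stat4 (probe set 17212724) is at chr1:51987106-52107189, Stat6 (17238064) at chr10:127642955-127660987 and Stat2 (17238367) at chr10:128270498-128292853. Stat5b (17269695, chr11:100780731-100859004), Stat5a (17256440, chr11:100859351-100885169) and Stat3 (17269717, chr11:100886806-100939594) follow one another. STAT5A and STAT5B are close paralogs, and whether their probe sets read each other's RNA was not tested.

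Promoter windows are shown for Stat2 and Stat4, because the genotype terms took the greatest share of these members' variation and the windows hold the ISRE matches found among the members. RefSeq (GRCm38.p6) gave 9 windows for the 6 genes, each with 250 bases before and 50 bases after a transcript start. The searched letters were GAAANNGAAA for the ISRE, TTCNNNGAA for the gamma-activated site that STAT dimers bind, and TTCNNNNGAA, with a wider gap, on both strands. Capitals mark matches, and all 3 windows lie on the plus strand, at chr10:128270248-128270547 (Stat2), chr1:51986898-51987197 (Stat4, outer) and chr1:52007990-52008289 (Stat4, inner).
Stat2: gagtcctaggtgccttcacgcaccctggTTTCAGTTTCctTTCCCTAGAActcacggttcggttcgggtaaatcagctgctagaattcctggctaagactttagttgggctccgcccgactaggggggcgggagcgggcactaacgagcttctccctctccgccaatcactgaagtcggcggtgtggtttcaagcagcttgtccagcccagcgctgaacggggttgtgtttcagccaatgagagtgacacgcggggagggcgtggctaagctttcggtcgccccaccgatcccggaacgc
Stat4 outer: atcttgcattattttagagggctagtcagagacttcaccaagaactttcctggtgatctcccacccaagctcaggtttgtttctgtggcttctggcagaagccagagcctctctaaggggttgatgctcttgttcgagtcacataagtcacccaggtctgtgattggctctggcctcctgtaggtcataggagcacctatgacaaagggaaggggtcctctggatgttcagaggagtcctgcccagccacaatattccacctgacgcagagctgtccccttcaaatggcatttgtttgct
Stat4 inner: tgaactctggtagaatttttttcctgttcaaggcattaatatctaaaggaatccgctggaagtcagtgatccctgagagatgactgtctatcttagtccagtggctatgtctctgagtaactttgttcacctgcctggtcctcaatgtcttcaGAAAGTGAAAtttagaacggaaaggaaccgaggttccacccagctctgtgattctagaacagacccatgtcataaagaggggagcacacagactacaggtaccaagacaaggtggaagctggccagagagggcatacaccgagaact

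An ISRE match began 222 bases before the start in the Stat2 window (TTTCAGTTTC, reverse strand) and 97 bases before the start in the inner Stat4 window (GAAAGTGAAA). These letters were in 3.44% of all 32851 promoter windows. TTCNNNNGAA was in the Stat2 window as TTCCCTAGAA, 210 bases before the start and not overlapping the ISRE match, against 6.95% of all windows. TTCNNNGAA was in 0 of the 9 STAT windows, against 8.3% of all windows, and 0 of the windows of Stat3, Stat5a, Stat5b and Stat6 held any of the 3 motifs. A match in letters is not a measured binding site.

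The arrays were checked against their labels. The Tyk2 probe set read 9.55, 8.63 and 8.85 on the arrays labelled Tyk2-/-, 8.63, 8.43 and 8.52 in Tyk2K923E cells and 8.68, 8.56 and 8.63 in WT cells. Set against WT, the Tyk2 value of Tyk2-/- was thus 0.39 log2 units higher (SE 0.15, limma adjusted p = 0.488). The sources do not say which part of Tyk2 is missing in Tyk2-/- mice, so this value cannot check that label. All 12 NK markers lay above the array median on every array, as did 11 of 12 T cell markers, and 0 of 9 B cell markers did. So did 1 of 10 markers of monocytes, macrophages and dendritic cells, 1 of 10 of neutrophils, 3 of 10 of basophils and mast cells, 2 of 5 of red cells and platelets and 4 of 10 of stroma and endothelium. The 3 arrays of experiment 1 stood apart on the first principal component, with 61.0% of the variance. Because the labels pair the arrays by experiment, each genotype comparison below was made within experiments (limma with experiment as a block, Benjamini-Hochberg adjustment over 12579 genes, threshold 0.05).

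Of the 6 STAT genes, 0 passed the threshold in any genotype comparison. Stat4 had the most negative difference of the members in both mutants against WT, and Stat2 was higher in Tyk2-/- than in Tyk2K923E cells, but neither difference passed after adjustment. Over all genes, 0.0874% passed between Tyk2-/- and WT, 0.0874% between Tyk2K923E and WT and 0.0238% between Tyk2-/- and Tyk2K923E. At an unadjusted p under 0.05 there were 1, 1 and 2 of the 6 members, against 9.08%, 10.0% and 9.68% of all genes in these comparisons. The median difference of the members was -0.02 between Tyk2-/- and WT, -0.07 between Tyk2K923E and WT and 0.04 between Tyk2-/- and Tyk2K923E, beside a median of 0.00 over all genes. Both mutants are set against the same WT arrays, so their differences from WT are not independent of each other.

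**Figure D1:**
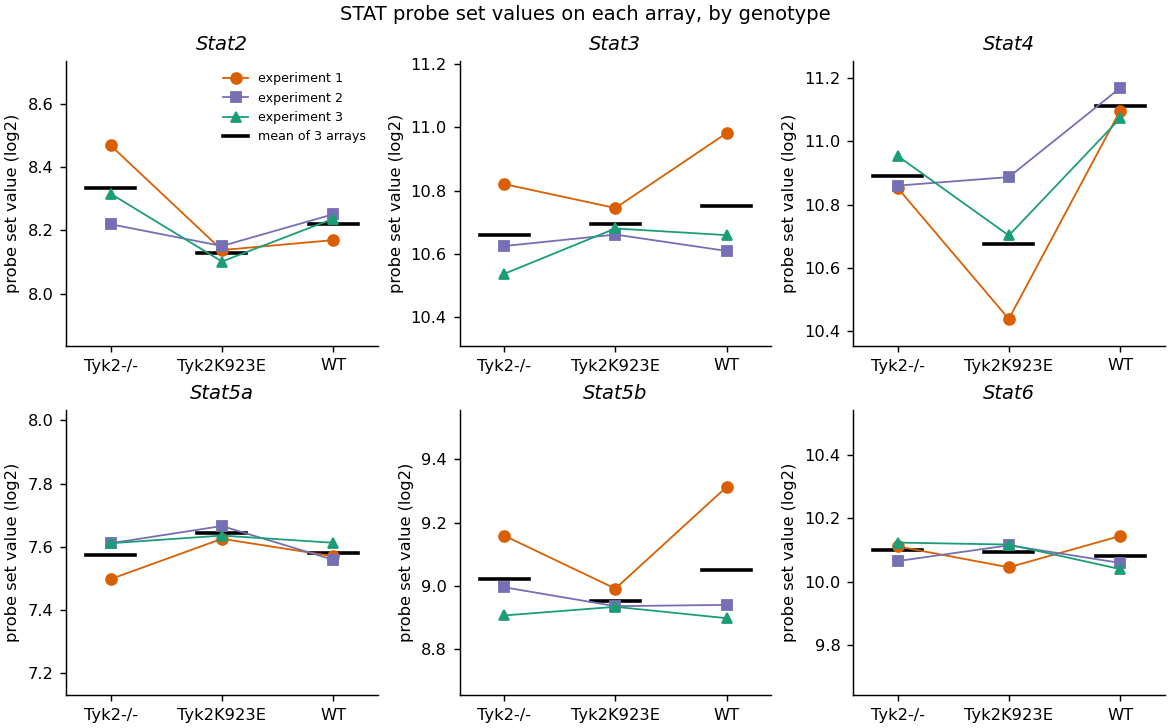
Probe set values (log2) of the 6 STAT genes on each of the 9 arrays, with genotypes on the horizontal axis, 1 symbol and thin line per experiment and a black bar for the mean of 3 arrays; every panel spans the same range. Stat4 lay between 11.07 and 11.17 in WT cells, above every mutant array, whereas Stat3 and Stat5b stood highest on the WT array of experiment 1.

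Stat4, which relays IL-12, had the widest range of the members, 0.73 log2 units over 9 arrays. It read 10.85, 10.86 and 10.95 in Tyk2-/- cells, 10.44, 10.89 and 10.70 in Tyk2K923E cells and 11.10, 11.17 and 11.07 in WT cells. All WT arrays were above all arrays of both mutants, and the Tyk2K923E arrays were spread most (SD 0.23, against 0.06 in Tyk2-/- and 0.05 in WT, n = 3 each). Genotype took 71.7% of the sum of squares of Stat4 and experiment 12.0%. The genotype share was also 63.3% for Stat2 and 43.6% for Stat5a, whose genotype differences did not pass the threshold either. No share over all genes is given here to set beside these.

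In Tyk2K923E cells the mean of Stat4 was 10.68 ± 0.23, against 11.11 ± 0.05 in WT cells (SD, n = 3 each). The difference was -0.44 (SE 0.09, 95% interval -0.65 to -0.23), a 1.35-fold lower value, and it was lower in 3 of 3 experiments (differences of -0.66, -0.28 and -0.37). Its limma p was 0.00133, at rank 120 of 12579 genes, and the adjusted p of 0.139 missed the threshold (0.643 without the block). Over the arrays and experiments left out one at a time, the difference lay between -0.54 and -0.33, with adjusted p of 0.0961 to 0.584. In bulk RNA, fewer cells of a type and less RNA per cell cannot be told apart.

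In Tyk2-/- cells Stat4 averaged 10.89 ± 0.06, against 11.11 ± 0.05 in WT cells (SD, n = 3 each). The difference was -0.22 (SE 0.09, 95% interval -0.43 to -0.01, limma adjusted p = 0.521), with -0.24, -0.31 and -0.12 in the 3 experiments. Between the mutants, Stat4 was 0.21 higher in Tyk2-/- than in Tyk2K923E cells (95% interval 0.00 to 0.42, limma adjusted p = 0.506), and their arrays overlapped. In experiment 2 the mutants stood the other way, at -0.03, and without Tyk2K923E replicate 1 the difference was 0.11. WT was highest in 3 of 3 experiments, and the order of the mutants below it was not settled. Without Tyk2-/- replicate 2, Stat4 was at -0.14 in Tyk2-/- against WT.

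Markers of T cells, which also express Stat4, and markers of NK cells both averaged lower in each mutant than in WT cells. The mean over the T cell list ranged from 8.07 to 8.36 in Tyk2-/-, 7.79 to 8.07 in Tyk2K923E and 8.08 to 8.48 in WT cells. Of the 11 tested, 11 were lower in Tyk2K923E than in WT cells (median -0.38) and 10 were lower in Tyk2-/- than in WT cells (median -0.09). Over all genes, 49.1% and 48.1% were lower in these comparisons. Of the T cell markers, 0 passed the threshold in either. Cd8a, a chain of the CD8 co-receptor, was at 8.15 in Tyk2K923E and 9.07 in WT cells, and Cd3e, a chain of the T cell receptor complex, at 10.97 and 11.35. Of the 3 basophil and mast cell markers tested, Mcpt8, a basophil protease, was at 10.56 in Tyk2-/-, 10.83 in Tyk2K923E and 10.06 in WT cells, and Cpa3, a mast cell and basophil protease, at 6.31, 7.24 and 6.33. The third marker went the other way, at -0.42 in Tyk2-/- and -0.05 in Tyk2K923E against WT. The median of the 3 was 0.77 in Tyk2K923E and -0.02 in Tyk2-/- against WT, and 0 passed the threshold. The NK marker list averaged 10.82 to 10.85 in Tyk2K923E, 10.76 to 10.94 in Tyk2-/- and 10.97 to 11.05 in WT cells. Of its 12 members, 8 were lower and 4 higher than WT in each mutant, with medians of -0.21 in Tyk2-/- and -0.13 in Tyk2K923E. At an unadjusted p under 0.05, 6 NK markers were lower in Tyk2-/-, and 5 were lower and 1 higher in Tyk2K923E. For the T cell markers, 0 were lower at that p in Tyk2-/- and 6 in Tyk2K923E. These compare with 4.66% and 5.14% of all genes lower in Tyk2-/- and Tyk2K923E. The marker lists were written with earlier results of these data known, so their counts are not an independent test. Itga2, the antigen of the DX5 beads, was the single NK marker past the threshold, at -0.71 in Tyk2K923E against WT (limma adjusted p = 0.0375). Which cells made the T cell marker RNA was not tested, and neither was the part of other cells in the Stat4 values.

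Stat2, the partner of IRF9, read 8.47, 8.22 and 8.32 in Tyk2-/- cells, 8.14, 8.15 and 8.10 in Tyk2K923E cells and 8.17, 8.25 and 8.24 in WT cells. All Tyk2-/- arrays were above all Tyk2K923E arrays, and all Tyk2K923E arrays were below all WT arrays, whereas Tyk2-/- and WT overlapped. The difference between Tyk2-/- and Tyk2K923E was 0.20 (SE 0.07, 95% interval 0.03 to 0.38, limma adjusted p = 0.468), higher in 3 of 3 experiments. Against WT it was 0.12 in Tyk2-/- (95% interval -0.05 to 0.29, limma adjusted p = 0.682) and -0.09 in Tyk2K923E (95% interval -0.26 to 0.08, limma adjusted p = 0.762). The array of Tyk2-/- replicate 1 weighed most on these values: without it, Stat2 was at 0.13 between Tyk2-/- and Tyk2K923E and 0.04 between Tyk2-/- and WT. Without WT replicate 1 or Tyk2-/- replicate 2, the difference between Tyk2-/- and WT was 0.06 or 0.19. The difference between Tyk2K923E and WT was -0.15 without WT replicate 1 and -0.05 without WT replicate 2.

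Stat5a, 1 of the 2 IL-2-responsive STATs, varied by 0.17 log2 units over 9 arrays. It read 7.50, 7.61 and 7.61 in Tyk2-/- cells, 7.63, 7.67 and 7.64 in Tyk2K923E cells and 7.57, 7.56 and 7.61 in WT cells. The Tyk2K923E arrays were above both other groups, by 0.06 against WT (95% interval -0.07 to 0.19, limma adjusted p = 0.788), and the difference between Tyk2-/- and Tyk2K923E was -0.07 (95% interval -0.20 to 0.06, limma adjusted p = 0.697). Between Tyk2-/- and WT the difference was -0.01 (95% interval -0.14 to 0.12).

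Groups that did not overlap were thus found for 1 of 6 members between Tyk2-/- and WT (Stat4), 3 of 6 between Tyk2K923E and WT (Stat2, Stat4 and Stat5a) and 2 of 6 between Tyk2-/- and Tyk2K923E (Stat2 and Stat5a). Over all genes the shares were 5.33%, 7.23% and 5.51%, and 6 genes are too few to read these counts as a property of the family.

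Stat5b, the other IL-2-responsive STAT, read 9.16, 8.996 and 8.91 in Tyk2-/- cells, 8.99, 8.94 and 8.93 in Tyk2K923E cells and 9.31, 8.94 and 8.90 in WT cells. The groups overlapped in all 3 comparisons, and the array furthest from the rest was WT of experiment 1. The differences were -0.03 between Tyk2-/- and WT (95% interval -0.21 to 0.15), -0.10 between Tyk2K923E and WT (-0.28 to 0.08) and 0.07 between Tyk2-/- and Tyk2K923E (-0.11 to 0.25).

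Stat3, which serves IL-10 and IL-21, read 10.82, 10.63 and 10.54 in Tyk2-/- cells, 10.75, 10.66 and 10.68 in Tyk2K923E cells and 10.98, 10.61 and 10.66 in WT cells. Here too the groups overlapped and WT of experiment 1 was highest. The differences were -0.09 between Tyk2-/- and WT (95% interval -0.26 to 0.08), -0.05 between Tyk2K923E and WT (-0.22 to 0.11) and -0.03 between Tyk2-/- and Tyk2K923E (-0.20 to 0.13).

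Stat6, the IL-4-responsive STAT, was the steadiest member, within 0.104 log2 units over 9 arrays. It read 10.11, 10.07 and 10.12 in Tyk2-/- cells, 10.05, 10.12 and 10.12 in Tyk2K923E cells and 10.14, 10.06 and 10.04 in WT cells. The groups overlapped throughout. The 95% intervals of its differences were -0.12 to 0.16 between Tyk2-/- and WT, -0.13 to 0.15 between Tyk2K923E and WT and -0.13 to 0.15 between Tyk2-/- and Tyk2K923E.

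**Figure D2:**
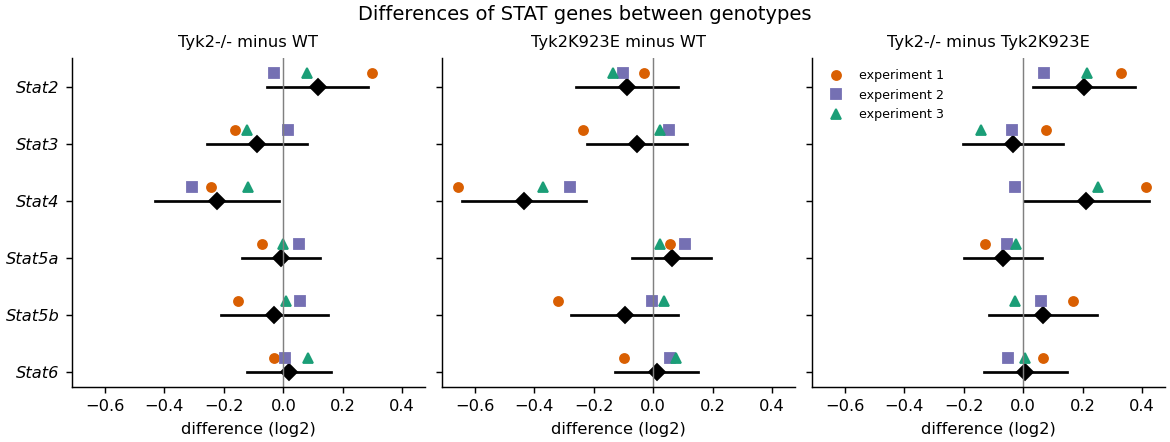
Differences (log2) of each STAT gene in the 3 genotype comparisons, with 1 coloured symbol per experiment and a black diamond with its 95% interval for the limma estimate of all 9 arrays. Stat4 in Tyk2K923E against WT lies furthest from 0, at -0.44, with all 3 experiments below 0.

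Stat3 and Stat5b differed between experiments rather than between genotypes. Experiment took 69.5% of the sum of squares of Stat3 and 64.5% of that of Stat5b, and genotype took 8.70% and 9.53%. Stat3 rose to 10.85 in experiment 1, against 10.63 in experiments 2 and 3, a difference of 0.22 (SE 0.06, limma adjusted p = 0.0274) with no overlap between these arrays, a separation found in 33.2% of all genes. Stat5b rose to 9.15 in experiment 1, against 8.94 in experiments 2 and 3, by 0.22 (SE 0.07, limma adjusted p = 0.0362), and its arrays overlapped. Both were higher in experiment 1 in all 3 genotypes, by 0.24 and 0.21 in Tyk2-/-, 0.07 and 0.06 in Tyk2K923E and 0.35 and 0.39 in WT cells for Stat3 and Stat5b in turn.

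These 2 of 6 members compare with 36.0% of all genes past the threshold in the same comparison (16.2% higher and 19.9% lower in experiment 1), so the share is near the background. The differences kept their direction without any single array, while the calls did not all hold. Without WT replicate 1, Stat3 was at 0.16 (limma adjusted p = 0.144) and Stat5b at 0.13 (limma adjusted p = 0.187). Stat3 also missed the threshold without Tyk2-/- replicates 1 or 3 or WT replicates 2 or 3, and Stat5b without any Tyk2-/- replicate, WT replicates 2 or 3 or Tyk2K923E replicate 2. The differences there were close to those of all arrays, at 0.19 to 0.22 for Stat3 and 0.20 to 0.23 for Stat5b. With no filter on low values the differences were the same and the adjusted p-values were 0.0677 and 0.085. The other 4 members did not pass: Stat4 was at -0.14 (limma adjusted p = 0.193), Stat5a at -0.05, Stat2 at 0.05 and Stat6 at 0.01.

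Likeness of pattern was measured as the root mean square difference over the 9 arrays after each gene's own mean was subtracted, with smaller values more alike. Stat3 and Stat5b lay 0.0498 apart. Among all tested genes Stat3 was the 4th most like Stat5b and Stat5b the 16th most like Stat3, and both share the arrays' experiment effect and the same chromosome region. Zyg11b (0.0466) and Egfl8 (0.0497) were most like Stat5b, and Atp11b (0.0280) and Exosc8 (0.0373) most like Stat3. Stat5a, which lies between Stat5b and Stat3 on chromosome 11, lay further from both, since its nearest member was Stat6 at 0.0622. Among all tested genes Stat6 was only the 672nd most like Stat5a. Both vary little, with root mean squares of 0.0467 (Stat5a) and 0.0364 (Stat6) about their own means. Their distance thus does not show a shared pattern.

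The genes most like Stat4 were Ctsw (0.0647), which encodes cathepsin W, a protease of cytotoxic lymphocytes, and Pglyrp2 (0.0701), which encodes a peptidoglycan recognition protein. Ctsw was at -0.18 in Tyk2-/- and -0.36 in Tyk2K923E against WT, and Pglyrp2 at -0.21 and -0.44, and neither passed the threshold in any genotype comparison. Both were picked for their likeness to Stat4 on these same arrays, so differences near those of Stat4 follow from the choice. Adarb1 (0.0385) and Mlycd (0.0432) were most like Stat2, Mydgf (0.0205) and Zgpat (0.0228) most like Stat5a, and Rplp1 (0.0244) and Sdcbp2 (0.0247) most like Stat6.

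**Figure D3:**
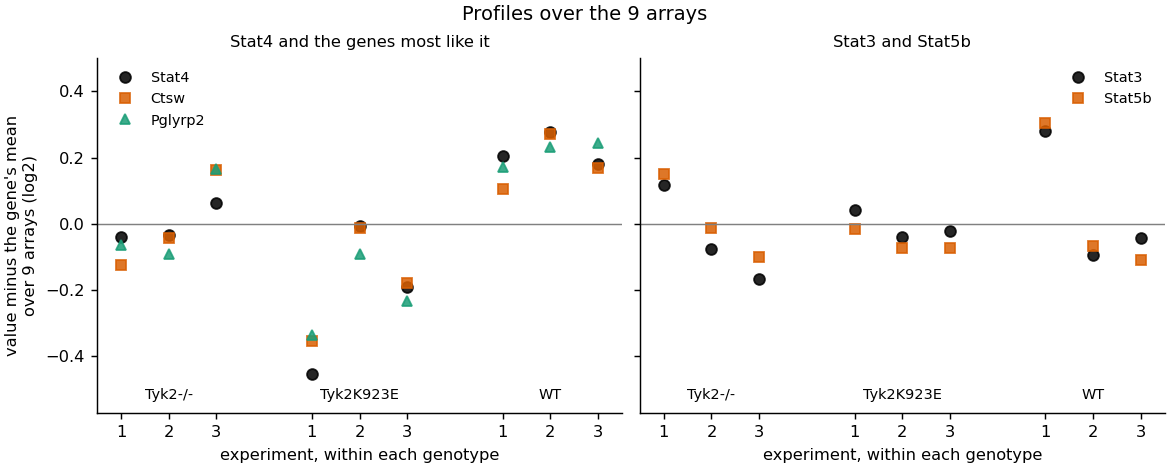
Values on the 9 arrays minus each gene's mean (log2), by genotype and experiment, for Stat4 with the 2 genes most like it (left) and for Stat3 with Stat5b (right). Stat4, Ctsw and Pglyrp2 lie above 0 on all WT arrays, and Stat3 and Stat5b are highest on the WT array of experiment 1. Ctsw and Pglyrp2 were picked for their likeness to Stat4 on these arrays.

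The genes measured next to the STAT genes were also read. These were Gm17767 and Gm3940 around Stat4, Lrp1 and Nab2 around Stat6, Timeless and Il23a around Stat2, and Ghdc and Cavin1 at the ends of the chromosome 11 group. Of their 24 genotype differences, 0 passed the threshold (smallest limma adjusted p = 0.452). The gene before Stat4, Gm17767, was at -0.30 in Tyk2-/- and 0.06 in Tyk2K923E against WT, and the gene after it, Gm3940, at 0.01 and 0.10, beside -0.22 and -0.44 for Stat4. Timeless, the gene before Stat2, was at 0.30 in Tyk2-/- and -0.04 in Tyk2K923E against WT, beside 0.12 and -0.09 for Stat2. Il23a, the gene after Stat2, was at 0.03 and 0.31.

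Upstream of the STATs, Janus kinases and receptor chains did not pass the threshold between genotypes. Jak1, which pairs with TYK2 at the interferon receptor, was at -0.01 in Tyk2-/- and 0.00 in Tyk2K923E against WT, and Jak2, which pairs with TYK2 at the IL-12 receptor, at -0.15 and -0.14. Of the interferon receptor chains, Ifnar2 was at -0.28 in Tyk2K923E against WT (limma adjusted p = 0.373) and Ifnar1 at -0.14. The IL-12 receptor chain Il12rb2 was at -0.18 in Tyk2K923E (limma adjusted p = 0.499) and -0.04 in Tyk2-/- cells against WT, and Il12rb1 at -0.09 and 0.00. Il2ra, the inducible chain of the IL-2 receptor, was at 0.33 in Tyk2-/- and 0.28 in Tyk2K923E against WT, and Il10rb, a chain of the IL-10 receptor, at -0.24 and -0.36, none of them past the threshold.

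Among regulators, Socs1, a feedback inhibitor of Janus kinases, was at 7.51 in Tyk2K923E and 7.78 in WT cells (limma adjusted p = 0.302) and 0.27 higher in Tyk2-/- than in Tyk2K923E cells. Cish, a feedback inhibitor induced by STAT5, was 0.35 higher in Tyk2-/- than in Tyk2K923E cells (limma adjusted p = 0.452). Over the 18 inhibitors, PIAS proteins and phosphatases, 0 passed, and the median was 0.00 in Tyk2-/- and -0.06 in Tyk2K923E against WT. Over all 13 pathway lists outside the STAT2 and IRF9 targets, 0 of 88 distinct genes tested passed in any genotype comparison. At an unadjusted p under 0.05 there were 13 between Tyk2-/- and WT (14.8%), 21 between Tyk2K923E and WT (23.9%) and 15 between Tyk2-/- and Tyk2K923E (17.0%), beside 9.08%, 10.0% and 9.68% of all genes tested. These lists were written with earlier results of these data known, so the counts are not an independent test.

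Irf9, the DNA-binding partner of STAT2, read 8.02, 7.94 and 7.79 in Tyk2-/- cells, 8.15, 8.02 and 7.71 in Tyk2K923E cells and 8.58, 8.36 and 8.28 in WT cells. All arrays of both mutants were below all WT arrays, a pattern that Stat2 itself did not have in Tyk2-/- cells. The difference was -0.49 (SE 0.07, limma adjusted p = 0.0649) in Tyk2-/- and -0.45 (SE 0.07, limma adjusted p = 0.0684) in Tyk2K923E against WT, just outside the threshold. Without the block the SE was 0.13 in both and neither was near the threshold (limma adjusted p = 0.817 in Tyk2K923E).

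Known target genes were set beside each STAT. The lists were written with earlier results of these data known, so their counts are not an independent test. Of 26 STAT2 and IRF9 targets tested, 2 fell and 0 rose in Tyk2-/- cells and 4 fell and 0 rose in Tyk2K923E cells against WT. Ifi27, an interferon-induced membrane protein, fell to 7.10 in Tyk2-/- and 6.64 in Tyk2K923E cells, against 8.44 in WT cells, with differences of -1.35 and -1.80 (limma adjusted p = 9.14e-04 and 2.78e-04). Rtp4, an interferon-induced chaperone of receptors, fell to 5.68 in Tyk2-/- and 5.38 in Tyk2K923E cells, against 6.78 in WT cells (limma adjusted p = 0.0446 and 0.0375). Mx1, an antiviral GTPase, and Lgals3bp, a secreted galectin-binding protein, fell in Tyk2K923E cells, with differences from WT of -0.96 and -0.63 (limma adjusted p = 0.0375 each). All 26 were lower than WT in both mutants, with a median of -0.34 in Tyk2-/- and -0.38 in Tyk2K923E cells, and over all genes 48.1% and 49.1% were lower. At an unadjusted p under 0.05 there were 17 and 19, against 4.66% and 5.14% of all genes in that direction. A target could pass the filter on low values through its WT arrays alone, which favours targets that are lower in the mutants. With no filter, 30 of 31 targets were lower and 1 was higher in Tyk2-/- against WT, and 31 of 31 were lower in Tyk2K923E. Between Tyk2-/- and Tyk2K923E cells 0 of the 26 passed, with a median of 0.07.

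The counts of 2 and 4 moved with the setting of the fit and with single libraries. Against WT, 1 target passed in each mutant without the experiment block, with no filter on low values, and with the block but 2 genotypes alone. With an intensity trend, 3 passed in Tyk2-/- and 6 in Tyk2K923E. In Tyk2-/- against WT, 1 passed without any single Tyk2-/- replicate or WT replicates 2 or 3, and 3 passed without WT replicate 1. In Tyk2K923E against WT, 1 passed without Tyk2K923E replicates 2 or 3 or WT replicates 2 or 3, and 3 passed without replicate 1 of either genotype.

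Targets of the other STATs did not pass the threshold in any genotype comparison. The 11 STAT4 targets had a median of -0.08 in Tyk2-/- and -0.17 in Tyk2K923E against WT. Of them 8 and 7 were lower, beside 48.1% and 49.1% of all genes. Ifng, which encodes interferon-gamma, was at 6.40 in Tyk2-/- and 6.71 in WT cells, a difference of -0.31 (limma adjusted p = 0.377), and Il18rap, a chain of the IL-18 receptor, was at -0.22 in Tyk2-/- and -0.29 in Tyk2K923E. Furin, a protease, was higher, at 0.39 in Tyk2K923E against WT (limma adjusted p = 0.247).

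The 18 STAT5 targets had a median of 0.03 in Tyk2-/- and -0.03 in Tyk2K923E against WT. Lta, which encodes lymphotoxin-alpha, was on opposite sides of WT, at 0.34 in Tyk2-/- and -0.32 in Tyk2K923E, and its difference of 0.66 between the mutants (SE 0.09) missed the threshold (limma adjusted p = 0.117). Pim2, a survival kinase, was at -0.26 in Tyk2-/- and -0.45 in Tyk2K923E against WT (limma adjusted p = 0.133 in Tyk2K923E). The 14 STAT3 targets had medians of 0.01 and -0.02, led by Junb at -0.23 in Tyk2-/- and Vegfa at 0.31 in Tyk2K923E against WT. Only 3 of 11 STAT6 targets passed the filter on low values, with Gata3 at -0.14 in both mutants against WT.

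**Figure D4:**
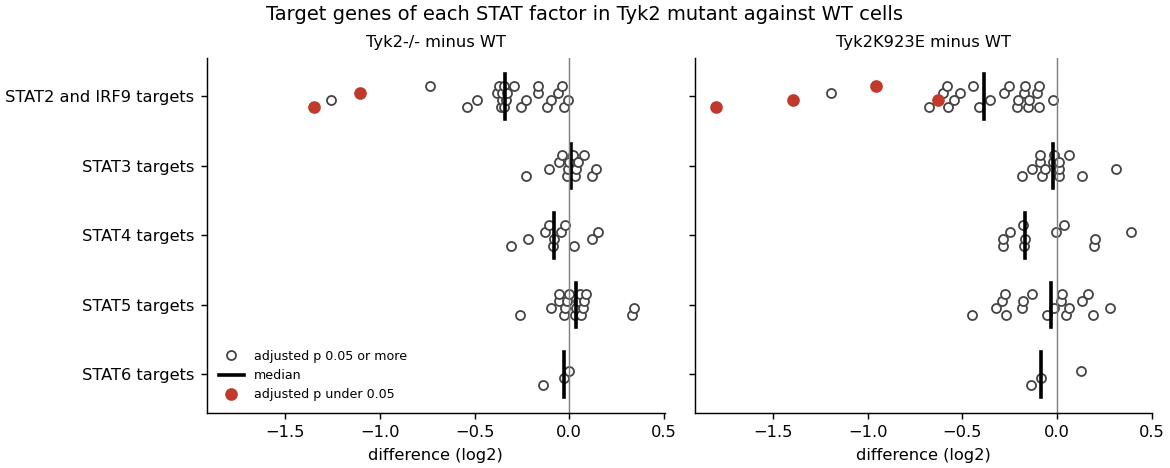
Differences (log2) of the tested target genes of each STAT factor in Tyk2-/- (left) and Tyk2K923E (right) against WT cells, 1 point per gene, filled red where the limma adjusted p was under 0.05, with a black bar for the median of the list. The STAT2 and IRF9 targets lie below 0 in both panels, and the other 4 lists straddle 0 or lie close to it.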

How the data were processed

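Per the submitters' processing notes, the authors normalised the arrays with RMA in Partek 6.6 and deposited log2 values for 41345 probe sets. The genome build behind the probe sets is not given in the sources used here. Array medians lay between 5.42 and 5.48.

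Probe sets with 1 gene symbol that reached the array median on at least 3 of 9 arrays were kept, the brightest for each gene, which gave 12579 genes. Genotypes were compared with limma 3.58.1 (lmFit, eBayes) in R 4.3.3, with experiment as an additive block, 4 residual and 4.01 prior degrees of freedom, and Benjamini-Hochberg adjustment over all genes (threshold 0.05). Differences are the genotype named first minus the one named second. The labels state independent experiments, so equal replicate numbers pair the arrays, and deviations from genotype means correlated at 0.383 to 0.787 within experiments and -0.71 to 0.559 across them. Experiment 1 was set against the mean of experiments 2 and 3 in the same fit.

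The STAT members, 22 gene and marker lists with 239 distinct genes and the experiment comparison were chosen with earlier results of these data known. Every STAT gene, Tyk2, Jak1, Jak2 and Irf9, up to 3 members of a list by smallest p, the 2 genes most like each STAT gene and the measured neighbours were named. Cd8a, Cd3e, Mcpt8, Cpa3, Lgals3bp and Itga2 were chosen after their values were seen. Jak3 and further STAT genes were not analysed here. All 6 members matched the RefSeq table by Entrez ID. The fit was tested on simulated data. The alternatives were no or a random block, other filters and scalings, an intensity trend, the mean over probe sets, pairs of genotypes alone, and each array or experiment left out. The counts of STAT2 and IRF9 targets under them were added after the data were seen. Figures were drawn with matplotlib 3.10.9.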

Additional observations from a re-analysis of the deposited data

How the results depend on the processing

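Of 414 STAT gene values under the alternatives, 386 kept their direction, and 0 genotype differences of a STAT gene passed the threshold under any of them. The 28 that turned belonged to main differences of at most 0.0965. One was Stat5a between Tyk2-/- and WT with median centring (1e-04), and the other 27 came from leaving out an array or experiment, over which the differences ranged as follows. Between Tyk2-/- and WT, Stat5a ranged from -0.0369 to 0.0253, Stat5b from -0.0744 to 0.0574 and Stat6 from -0.0138 to 0.0594. Between Tyk2K923E and WT, Stat3 ranged from -0.108 to 0.0364, Stat5b from -0.163 to 0.0159 and Stat6 from -0.0217 to 0.0665. Between Tyk2-/- and Tyk2K923E, Stat3 ranged from -0.108 to 0.0198, Stat5b from -0.0148 to 0.123 and Stat6 from -0.0347 to 0.0362. Between experiment 1 and experiments 2 and 3, Stat2 ranged from -0.0314 to 0.106 and Stat6 from -0.0268 to 0.0559.

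The numbers of all genes past the threshold moved more. Without the replicate block, 4 genes passed in Tyk2-/- cells and 1 gene in Tyk2K923E cells against WT, compared with 11 and 11 with it, and the block changed no call of a STAT gene between genotypes. In the same order they were 4 and 1 with no filter, 19 and 29 with a 70th percentile filter, 22 and 41 with an intensity trend and 6 and 2 with 2 genotypes alone. Between Tyk2K923E and WT there were 20 with median centring and 17 with quantile normalisation. With arrays or experiments left out, the counts ranged from 3 to 10 between Tyk2-/- and WT, 1 to 6 between Tyk2K923E and WT, 2 to 6 between Tyk2-/- and Tyk2K923E (3 with all arrays) and 3129 to 4292 for experiment 1 (4534 with all arrays). Fits without arrays have fewer degrees of freedom, and otherwise the cause was not tested.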
